A study of Caenorhabditis elegans with 6 samples.

Results

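The 9 genes dcar-1, tpa-1, nipi-3, tir-1, nsy-1, sek-1, pmk-1, snf-12 and sta-2 encode the p38 MAP kinase route that acts upstream of the antimicrobial peptides of the Caenorhabditis elegans epidermis. They were taken by name, matched to sequence names with the WBcel235 annotation, and made up 9 of 45343 features in the table of expression values and 9 of 17058 features tested. Messenger RNA was sequenced from whole larvae, synchronized with bleach and grown on agar plates until the mid-L3 stage. The mutant group had 3 libraries, from blmp-1(tm548) animals, which carry a mutant allele of the zinc-finger repressor gene blmp-1, and the wild type (WT) group had 3, from the strain N2 Bristol. The labels name no other allele and no treatment, and the design text calls the samples biological replicates without saying how cultures were kept apart. The p-values therefore measure the spread between these samples, which may be partly technical.

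In the epidermis of C. elegans, fungal infection and wounding switch on genes for small secreted antimicrobial peptides. Signals from a receptor at the cell surface pass through protein kinase C and a TIR-domain adaptor to a chain of 3 kinases that ends in the p38 kinase PMK-1, and from there to a STAT-like transcription factor. The same adaptor and kinases also act in the intestine, where they defend against bacteria, and in neurons, so that a level in whole larvae sums several tissues. In such samples fewer cells of a type and less RNA per cell cannot be told apart.

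In blmp-1(tm548) larvae 4 of the 9 genes rose and none fell (limma fitted to log2(FPKM + 1), called at a Benjamini-Hochberg adjusted p below 0.05, n = 3 in each group). FPKM is the number of sequenced fragments per length of transcript and per size of library. The genes that rose were dcar-1, nipi-3, tir-1 and sta-2, by 1.20-fold to 1.50-fold. Not called were the 3 kinase genes nsy-1, sek-1 and pmk-1 in the middle of the route, and also tpa-1 upstream and snf-12 downstream of them. The log2 differences of tpa-1 and snf-12 were 0.25 and 0.28, beside 0.26 for dcar-1, so the calls do not simply follow the position in the route. Over all features tested 6.4% were called, 3.34% higher and 3.06% lower. The median log2 difference of the 9 genes was 0.26, against 0.00 over all features tested. Among the 7604 protein-coding genes with a mean FPKM between those of the lowest and the highest of the 9 genes, 3.72% were called higher and 3.54% lower. For each of the 9 genes the 3 mutant values lay all above or all below the 3 WT values, 7 above and 2 below. Groups were apart in this way for 28.7% of all features tested (13.7% above and 15% below) and for 32.7% of the protein-coding genes in that range of levels. An exact permutation test of a single gene in 3 against 3 libraries cannot give a two-sided p below 0.1, so that calls rest on the variance that limma shares across genes.

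**Figure D1:**
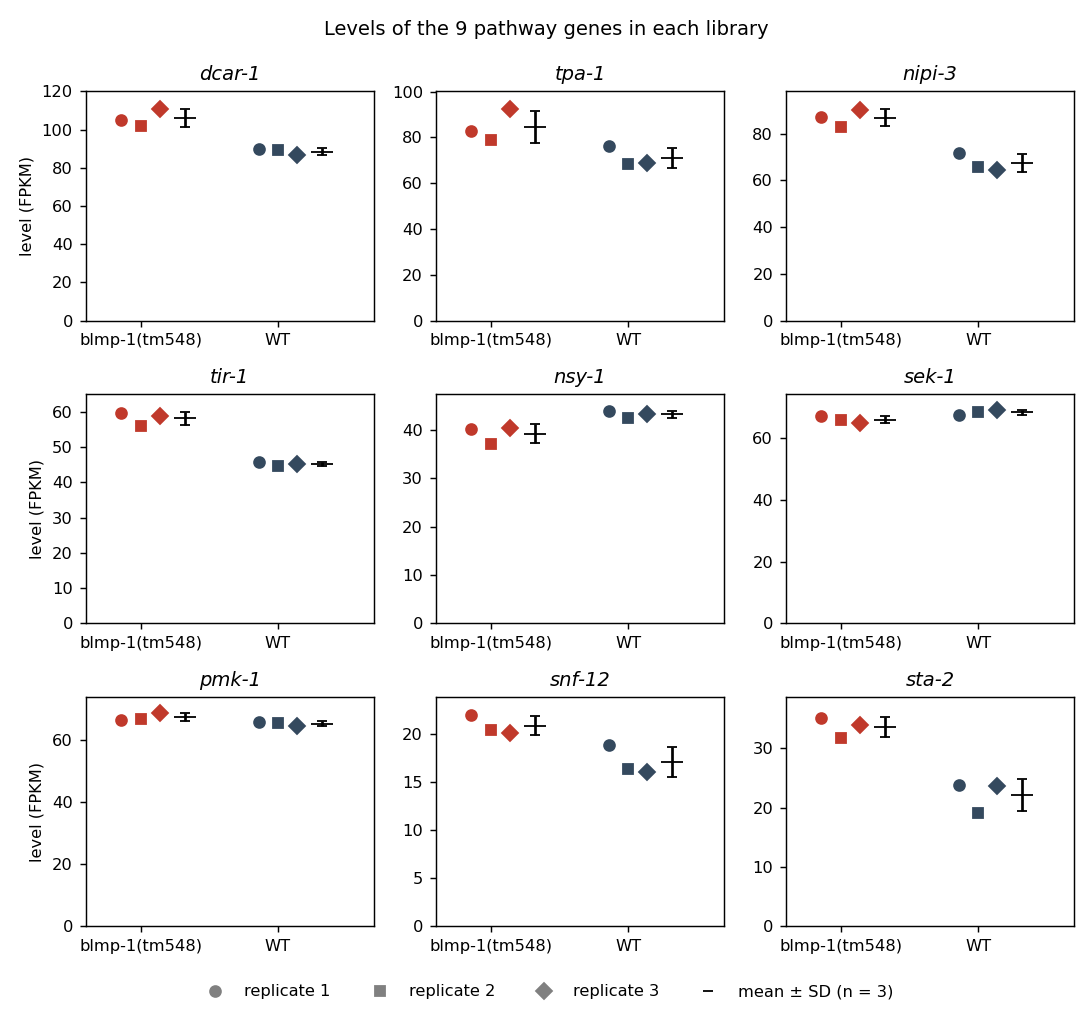
Level in FPKM (vertical axes, from 0) of each of the 9 genes in the 3 blmp-1(tm548) and the 3 WT libraries, with marker shapes for replicates 1, 2 and 3 and the mean ± SD beside them (n = 3). The groups are furthest apart in proportion for sta-2, at 31.7 to 35.1 FPKM in the mutant and 19.0 to 23.8 FPKM in WT. Their means are closest in proportion for pmk-1. The ranges come closest for sek-1, at 64.8 to 67.3 FPKM in the mutant and 67.6 to 69.1 FPKM in WT.

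The transcript of blmp-1 (F25D7.3) itself was at 40.3, 36.9 and 37.96 FPKM in mutant replicates 1, 2 and 3, against 64.9, 71.1 and 75.2 FPKM in WT replicates 1, 2 and 3 (log2 difference -0.86, limma adjusted p = 0.00299), and the labels do not say which part of the gene the allele removes. Depth was estimated from the lowest values, which step by the worth of 1 read, and came to 8080000 to 8610000 reads in the mutant libraries and 8120000 to 8700000 reads in the WT libraries, with quartiles over the 180 genes used of 6830000 to 9990000 reads. At this depth the 9 genes rested on about 280 reads (sta-2, WT replicate 2) to about 3110 reads (tir-1, mutant replicate 1) per library. Counting error alone would then be up to 5.96% of a value (sta-2). For pmk-1 it would be 3.36% and for sek-1 3.05%, above the spread between their libraries of 1.83% and 1.88% in the mutant and 1.08% and 1.15% in WT (coefficient of variation, n = 3). The estimated reads and the error drawn from them are therefore rough. The 6 libraries held the markers of all larval tissues looked for. Summed over 10 epidermal markers the level was 1278 to 1408 FPKM in the mutant and 1288 to 1402 FPKM in WT. Over 9 intestinal markers it was 1027 to 1100 FPKM in the mutant and 1026 to 1114 FPKM in WT, and over 10 neuronal markers it was 775 to 811 FPKM in the mutant and 770 to 781 FPKM in WT. Over 6 markers of body wall muscle it was 802 to 873 FPKM in the mutant and 777 to 868 FPKM in WT. Over 8 germline markers it was 583 to 640 FPKM in the mutant and 504 to 607 FPKM in WT. No marker of these lists was called or at 0 in all libraries. The intestinal marker end-3, at a mean of 0.21 FPKM, was too low to be tested. The 6 yolk genes, which adults express strongly, summed to 156, 72.2 and 122 FPKM in mutant replicates 1, 2 and 3 and to 386, 532 and 124 FPKM in WT replicates 1, 2 and 3. In this sum WT replicate 3 lay within the mutant range. For vit-1, vit-3, vit-4 and vit-5 all WT libraries were above all mutant libraries, WT replicate 3 by the least, and for vit-2 and vit-6 the groups overlapped. Of the 6 genes 0 were called by limma and 4 had an unadjusted p under 0.05 (over all features tested 3917 of 17058). Without WT replicate 3 these 4 yolk genes were called lower. Whether this difference has a part in the results for the 9 genes was not tested.

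The most upstream gene, dcar-1 (C06H5.7), encodes a G protein-coupled receptor that senses the tyrosine metabolite 4-hydroxyphenyllactic acid in the epidermis and dihydrocaffeic acid in sensory neurons. Its level was 105, 102 and 111 FPKM in mutant replicates 1, 2 and 3, against 89.9, 89.1 and 86.5 FPKM in WT replicates 1, 2 and 3. All mutant libraries were above all WT libraries, with mutant replicate 3 the highest. The rise was 1.20-fold (log2 difference 0.26, SE 0.0463, 95% interval 0.14 to 0.37, limma adjusted p = 0.0296). It was the smallest of the 4 rises. The call was lost without mutant replicate 1 or 2 (limma adjusted p = 0.110 and 0.0658) and without WT replicate 1, 2 or 3 (0.0557, 0.115 and 0.0818), settings that also have less power.

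Downstream of the receptor, tpa-1 (B0545.1) encodes a protein kinase C of the delta type. It was at 82.7, 78.8 and 92.3 FPKM in mutant replicates 1, 2 and 3, against 76.1, 68.5 and 68.6 FPKM in WT replicates 1, 2 and 3. The groups did not overlap, but mutant replicate 2 and WT replicate 1 were only a few FPKM apart. The log2 difference of 0.25 (95% interval 0.06 to 0.43) did not pass the threshold (limma adjusted p = 0.121). This interval includes the sizes of the rises of dcar-1, nipi-3 and tir-1, so a rise of that size is not set aside by the data.

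The gene nipi-3 (K09A9.1) encodes a Tribbles-like pseudokinase that is needed for the peptide response to fungal infection. Its level was 87.3, 82.9 and 90.2 FPKM in mutant replicates 1, 2 and 3, against 71.7, 65.8 and 64.4 FPKM in WT replicates 1, 2 and 3. Every mutant library stood above every WT library, and WT replicate 1 was the highest of its group, as for tpa-1. The rise was 1.29-fold (log2 difference 0.36, SE 0.0593, 95% interval 0.22 to 0.51, limma adjusted p = 0.0231). Without mutant replicate 1 or 2 (limma adjusted p = 0.0947 and 0.0573) or WT replicate 2 or 3 (0.105 and 0.0620) it was not called.

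The adaptor gene tir-1 (F13B10.1) is the worm homolog of mammalian SARM1, and its protein carries the TIR domain that activates the kinase NSY-1. It was at 59.6, 56.1 and 58.9 FPKM in mutant replicates 1, 2 and 3, against 45.7, 44.6 and 45.4 FPKM in WT replicates 1, 2 and 3. The WT values lay within about 1 FPKM of each other, and the lowest mutant value was well above them. The rise was 1.28-fold (log2 difference 0.36, SE 0.0482, 95% interval 0.24 to 0.47, limma adjusted p = 0.0129), the lowest adjusted p among the 9 genes. The call held without mutant replicate 2 or 3 and without WT replicate 1 or 3, and was lost without mutant replicate 1 (limma adjusted p = 0.0662) or WT replicate 2 (0.0723). The annotation lists 13 protein-coding transcripts of tir-1, more than of any other of the 9 genes, and the values do not tell them apart.

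**Figure D2:**
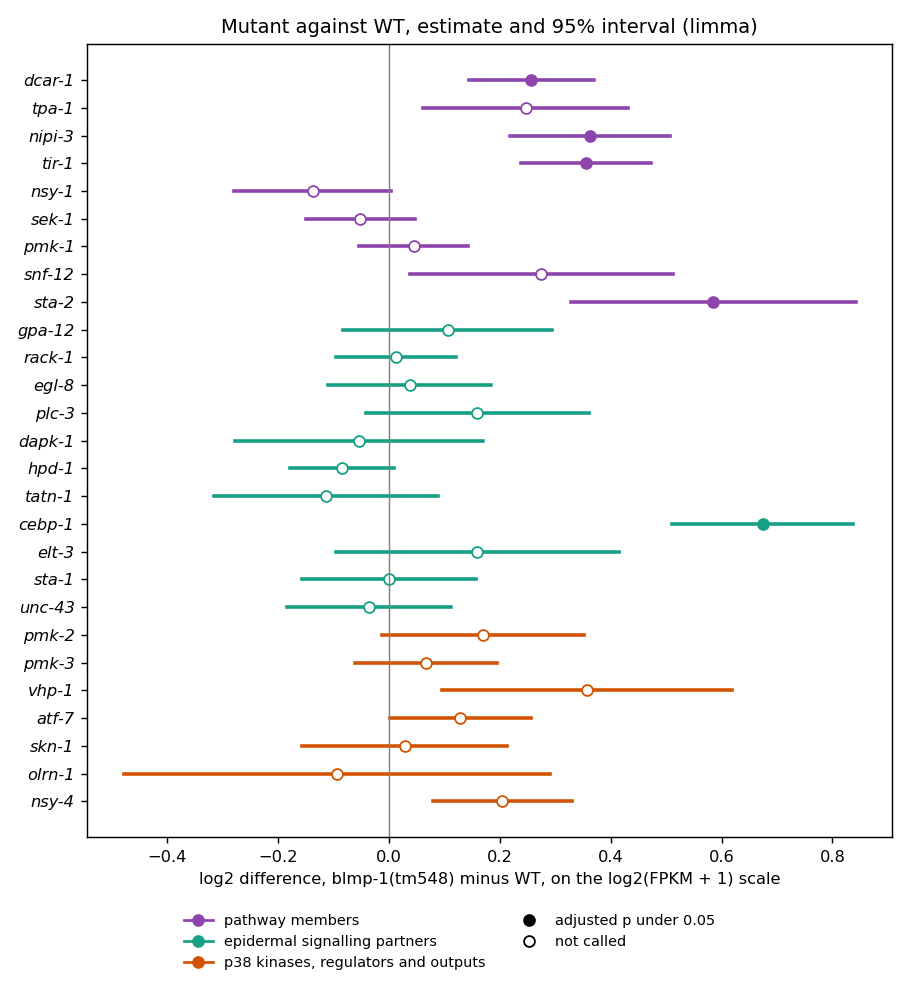
Log2 difference of blmp-1(tm548) minus WT (horizontal axis, log2(FPKM + 1) scale) for the 9 pathway genes, 11 genes listed as epidermal signalling partners and 7 p38 kinases, regulators and outputs, with 95% intervals from limma (n = 3 per group). Filled points have an adjusted p under 0.05: dcar-1, nipi-3, tir-1 and sta-2 among the pathway genes, and cebp-1 (0.67) among the others.

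The kinase NSY-1, homolog of mammalian ASK1, is the MAP kinase kinase kinase of the chain. Its gene nsy-1 (F59A6.1) was at 40.2, 37.1 and 40.5 FPKM in mutant replicates 1, 2 and 3, against 43.9, 42.4 and 43.4 FPKM in WT replicates 1, 2 and 3. Here all mutant libraries were below all WT libraries. The log2 difference of -0.14 (95% interval -0.28 to 0.00) did not pass (limma adjusted p = 0.229).

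The gene sek-1 (R03G5.2) encodes the MAP kinase kinase that phosphorylates PMK-1. It was at 67.3, 66.1 and 64.8 FPKM in mutant replicates 1, 2 and 3, against 67.6, 68.7 and 69.1 FPKM in WT replicates 1, 2 and 3. The mutant values were lower by a narrow margin (log2 difference -0.05, 95% interval -0.15 to 0.05, limma adjusted p = 0.515).

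The p38 kinase gene pmk-1 (B0218.3) had the smallest difference of the 9. It was at 66.6, 66.7 and 68.8 FPKM in mutant replicates 1, 2 and 3, against 65.8, 65.5 and 64.5 FPKM in WT replicates 1, 2 and 3. These libraries spread by 1.83% in the mutant and 1.08% in WT (coefficient of variation), the narrowest spread of the 9 genes in both groups. The log2 difference was 0.04 (95% interval -0.05 to 0.14, limma adjusted p = 0.562). The upper bound is a 1.10-fold higher level, below each estimated rise of dcar-1, nipi-3, tir-1 and sta-2.

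Below the kinases, snf-12 (T25B6.7) encodes a protein of the SLC6 transporter family that sits on vesicles in the epidermis and binds STA-2. It was the lowest of the 9 genes, at 21.97, 20.4 and 20.2 FPKM in mutant replicates 1, 2 and 3, against 18.9, 16.3 and 16.03 FPKM in WT replicates 1, 2 and 3. The groups did not overlap, and WT replicate 1 was again the highest of its group. The log2 difference of 0.28 (95% interval 0.04 to 0.51) missed the threshold (limma adjusted p = 0.165).

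The last gene of the route, sta-2 (F58E6.1), encodes the STAT-like transcription factor that acts with SNF-12 on the peptide genes. It had the largest difference of the 9 genes, at 35.1, 31.7 and 33.9 FPKM in mutant replicates 1, 2 and 3, against 23.8, 19.0 and 23.6 FPKM in WT replicates 1, 2 and 3. The low value of WT replicate 2 made the WT spread wide, at 12.1%, against 5.16% in the mutant (coefficient of variation). The rise was 1.50-fold (log2 difference 0.59, SE 0.106, 95% interval 0.33 to 0.84, limma adjusted p = 0.0299). The call held without WT replicate 1. It was lost without mutant replicate 1, 2 or 3 (limma adjusted p = 0.121, 0.0872 and 0.0654) and without WT replicate 2 or 3 (0.0725 and 0.0568).

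Which of the 9 genes were called thus depended on single libraries. No difference changed its sign, and none could, since the groups of each gene did not overlap. Without mutant replicate 1, 0 of the 9 genes were called by limma and 416 features in all, while 5 of the 9 had an unadjusted p under 0.05. Without WT replicate 2 it was again 0 of 9, with 369 features in all and 4 of the 9 at an unadjusted p under 0.05. With all libraries this unadjusted number was 6 of the 9, and 3917 of 17058 over all features tested. Over all features it was not counted with a library left out. Without mutant replicate 2 or WT replicate 3 only tir-1 was called, with 396 and 694 features in all. Without mutant replicate 3, dcar-1, nipi-3 and tir-1 were called, and without WT replicate 1, nipi-3, tir-1 and sta-2, with 1332 and 917 features in all. With all libraries it was 1092 features.

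**Figure D3:**
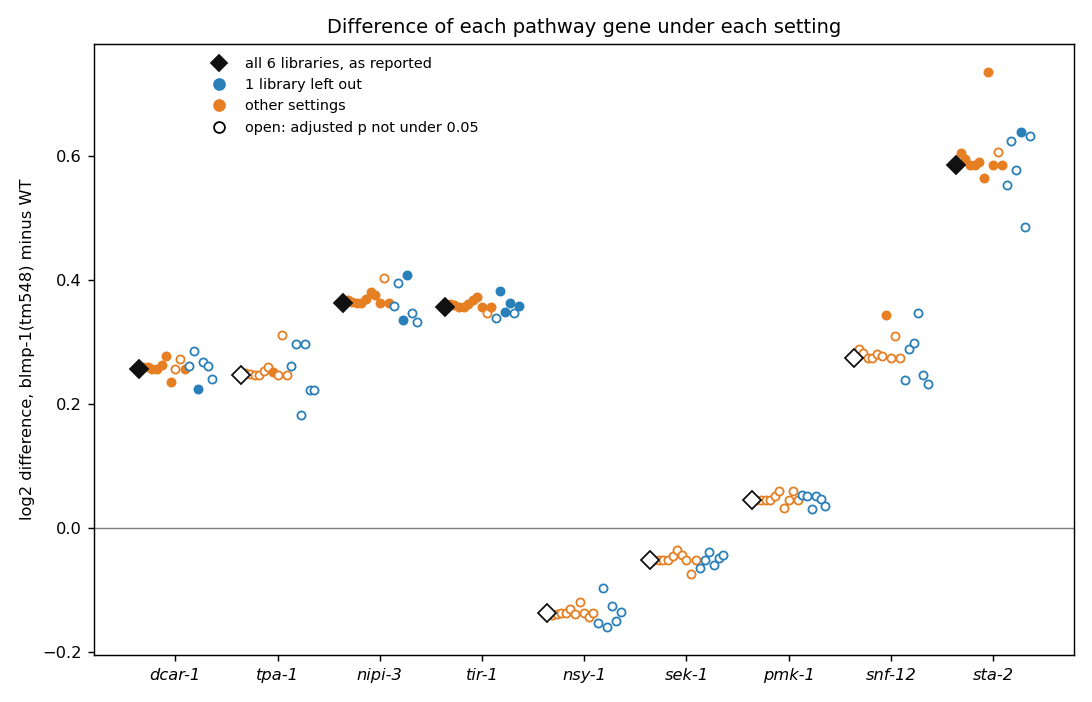
Log2 difference of blmp-1(tm548) minus WT (vertical axis) for each of the 9 genes under the reported fit (diamond), with 1 library left out (blue) and under the other settings (orange). Filled points have an adjusted p under 0.05. No point crosses 0, which groups without overlap fix in advance except under median ratio scaling and quantile normalization. The points of sta-2 range from 0.48 to 0.74 and those of pmk-1 from 0.03 to 0.06.

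The order of the levels along the route was nearly the same in both groups. FPKM is per length, so levels of different genes can be set side by side. In the mutant dcar-1 was the highest (106 ± 4.64 FPKM), followed by nipi-3 (86.8 ± 3.67), tpa-1 (84.6 ± 6.99), pmk-1 (67.4 ± 1.24), sek-1 (66.1 ± 1.24), tir-1 (58.2 ± 1.85), nsy-1 (39.3 ± 1.89), sta-2 (33.5 ± 1.73) and snf-12 (20.8 ± 0.980; SD, n = 3). The libraries of nipi-3 and tpa-1, and those of pmk-1 and sek-1, overlapped, and the other neighbours did not. In WT dcar-1 was the highest as well (88.5 ± 1.76 FPKM), followed by tpa-1 (71.1 ± 4.32), sek-1 (68.5 ± 0.789), nipi-3 (67.3 ± 3.87), pmk-1 (65.3 ± 0.703), tir-1 (45.2 ± 0.542), nsy-1 (43.2 ± 0.739), sta-2 (22.1 ± 2.68) and snf-12 (17.1 ± 1.58; SD, n = 3). There tpa-1, sek-1, nipi-3 and pmk-1 each overlapped with the next. The muscle myosin gene unc-54, an abundant transcript, was at 196 ± 7.79 FPKM in the mutant and 195 ± 9.83 FPKM in WT, and the 95th percentile of the coding genes of at least 300 nt was 159 FPKM. The upper end of the scale was thus narrow, and whether folds between genes are compressed by it was not tested.

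Ratios of levels within a library were taken for 5 pairs of genes, chosen with the gene calls known, and none passed an exact test adjusted over the 5. With 3 against 3 libraries none could have passed. The level of tir-1 over that of nsy-1 was 1.48, 1.51 and 1.45 in mutant replicates 1, 2 and 3, against 1.04, 1.05 and 1.05 in WT replicates 1, 2 and 3. This ratio is independent of the scaling of a library. Its groups could not overlap, since all mutant values lay above the WT values for tir-1 and below them for nsy-1. The level of sta-2 over that of its binding partner snf-12 was 1.60, 1.55 and 1.68 in the mutant replicates, against 1.26, 1.16 and 1.47 in the WT replicates. For sta-2 over pmk-1 it was 0.527, 0.475 and 0.493 in the mutant replicates, against 0.361, 0.290 and 0.365 in the WT replicates. Each of these 3 gave an exact permutation p of 0.1, two-sided, the smallest that 3 against 3 libraries allow (0.167 adjusted over 5 ratios). For nipi-3 over tir-1, genes that both rose, the groups overlapped, at 1.49 ± 0.0352 in the mutant and 1.49 ± 0.0758 in WT (SD, n = 3, exact permutation p = 0.9, adjusted 0.9). The ratio of the receptor gene dcar-1 to the gene of its G protein, gpa-12, overlapped as well, at 1.95 ± 0.166 in the mutant and 1.76 ± 0.127 in WT (SD, n = 3, exact permutation p = 0.2, adjusted 0.25).

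Of 11 further genes that work with the route or are related to its members 1 rose and none fell (3.34% and 3.06% of all features tested). Their median log2 difference was 0.01. The gene that rose was cebp-1 (D1005.3), which encodes a bZIP factor of the C/EBP family that NIPI-3 is known to keep in check in C. elegans. It was at 79.2, 77.6 and 90.1 FPKM in mutant replicates 1, 2 and 3, against 50.4, 52.3 and 50.6 FPKM in WT replicates 1, 2 and 3. Its rise of 1.60-fold (log2 difference 0.67, SE 0.0673, limma adjusted p = 0.00528) was larger than that of each of the 9 genes, and it was called with any single library left out, but not without both replicates 1 (0.0681). The genes between receptor and protein kinase C were not called. The log2 difference was 0.11 for the G protein alpha subunit gene gpa-12, 0.01 for its partner rack-1, and 0.04 and 0.16 for the phospholipase C genes egl-8 and plc-3. For tatn-1 and hpd-1, enzymes of tyrosine breakdown that make and use up the precursor of the DCAR-1 ligand, it was -0.11 and -0.08. The others were the death-associated kinase dapk-1, which limits the epidermal response (-0.05), the GATA factor elt-3 (0.16), the second STAT-like gene sta-1 (0.00) and the calcium-dependent kinase unc-43, which acts on NSY-1 in neurons (-0.04). Limma adjusted p for these 10 genes ran from 0.260 to 0.999.

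Among 7 p38 kinases, regulators and outputs, 0 were called by limma, 3 had an unadjusted p under 0.05 and the median log2 difference was 0.13. Over all features tested 3917 of 17058 had such an unadjusted p. The kinase genes pmk-2 (F42G8.3) and pmk-3 (F42G8.4) share an operon with pmk-1. Their log2 differences were 0.17 and 0.07 (limma adjusted p = 0.244 and 0.508), beside 0.04 for pmk-1. The MAP kinase phosphatase gene vhp-1 (F08B1.1), which switches p38 and JNK kinases off, was at 76.1, 75.8 and 98.3 FPKM in mutant replicates 1, 2 and 3, against 62.9, 63.4 and 66.8 FPKM in WT replicates 1, 2 and 3. Its groups did not overlap, and mutant replicate 3 stood far above the other mutant libraries. The log2 difference of 0.36 missed the threshold (limma adjusted p = 0.116). The claudin-like gene nsy-4, which acts on the NSY-1 pathway in olfactory neurons, had a log2 difference of 0.21 (limma adjusted p = 0.0761) and was called without mutant replicate 3 (0.0429). The transcription factor genes atf-7 and skn-1, both known targets of PMK-1, were at 0.13 and 0.03, and olrn-1, a neuronal regulator of the same pathway, was at -0.09 (limma adjusted p = 0.215, 0.865 and 0.772).

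**Figure D4:**
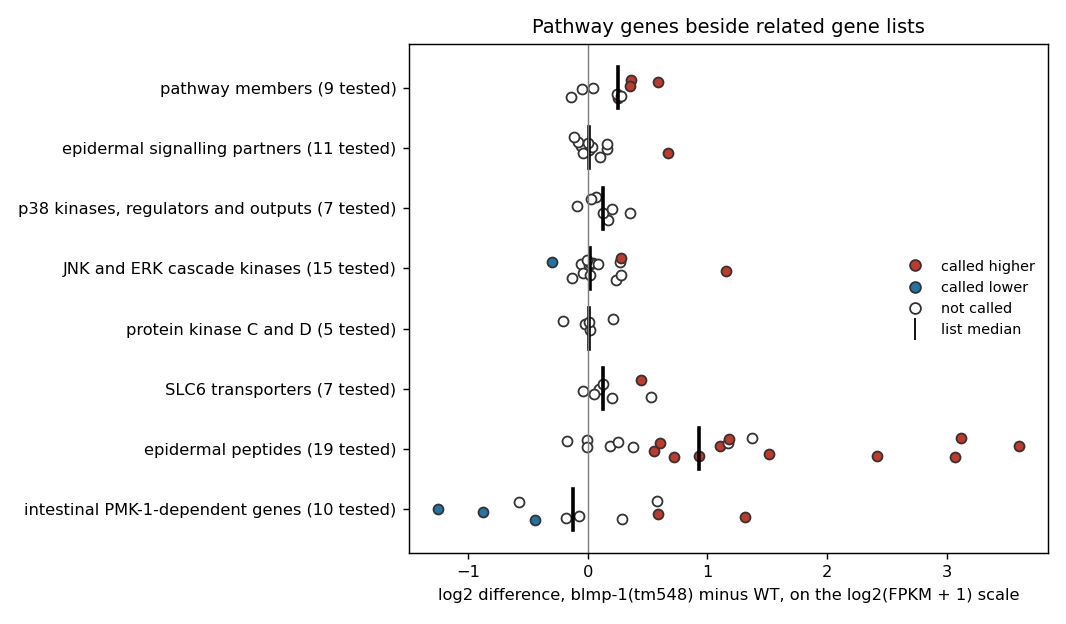
Log2 difference of blmp-1(tm548) minus WT (horizontal axis, log2(FPKM + 1) scale) for each tested gene of 8 lists, red where called higher, blue where called lower and open where not called, with the list median as a bar. The pathway genes have a median of 0.26 and the epidermal peptides 0.93, and the intestinal genes spread to both sides (-1.25 to 1.31).

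In 15 kinases and adaptors of the JNK, ERK and TAK1 cascades 2 genes rose and 1 fell (3.34% and 3.06% of all features tested). Their median log2 difference was 0.02. The JNK-like kinase gene kgb-2 (ZC416.4) rose to 13.4, 15.5 and 20.9 FPKM in mutant replicates 1, 2 and 3, against 6.95, 5.75 and 7.70 FPKM in WT replicates 1, 2 and 3 (log2 difference 1.16, limma adjusted p = 0.0251). Reads of kgb-2 and its close paralog kgb-1 may have been split in the counting, and kgb-1 itself had a log2 difference of 0.05. The MAP kinase kinase kinase gene dlk-1 (F33E2.2), which acts through PMK-3 in axon regrowth, rose to 75.7 ± 1.49 FPKM in the mutant, against 62.3 ± 0.978 FPKM in WT (SD, n = 3, log2 difference 0.28, limma adjusted p = 0.0168). The TAK1-binding protein gene tap-1 (C44H4.5) fell to 46.0 ± 0.689 FPKM in the mutant, against 56.7 ± 2.02 FPKM in WT (SD, n = 3, log2 difference -0.29, limma adjusted p = 0.0251). The calls of dlk-1 and tap-1 were lost without mutant replicate 1 (limma adjusted p = 0.0701 and 0.104), mutant replicate 2 (0.0776 and 0.0979) or WT replicate 2 (0.0882 and 0.112). That of kgb-2 was lost without mutant replicate 1 or 2 or WT replicate 1 or 2 (0.0516, 0.0883, 0.0596 and 0.0996).

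Of 19 tested nlp and cnc genes for epidermal peptides 11 rose and none fell. Their median log2 difference was 0.93 and the largest 3.61 (cnc-7). Among the nlp genes the largest was 1.51 (nlp-25), and cnc-9, cnc-4 and cnc-2 were at 3.12, 3.07 and 2.42. Whether each of these peptide genes depends on the 9 genes was not tested. Over all features tested 3.34% rose and 3.06% fell. The largest difference among the 9 genes of the route was 0.59 (sta-2). The number of peptide genes that rose was 6 without mutant replicate 1 or WT replicate 2, and 7 to 12 without the others.

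In the intestine PMK-1 is needed for the expression of many immune effector genes. Of 10 such genes 2 rose and 3 fell in the mutant (3.34% and 3.06% of all features tested). Their median log2 difference was -0.13. The gene irg-5 (F35E12.5) rose to 107, 100 and 65.2 FPKM in mutant replicates 1, 2 and 3, against 39.3, 41.1 and 26.98 FPKM in WT replicates 1, 2 and 3 (log2 difference 1.31, limma adjusted p = 0.0299). Replicate 3 was the lowest of its group on both sides. The C-type lectin gene clec-85 (Y54G2A.6) rose to 85.4 ± 5.23 FPKM in the mutant, against 56.8 ± 7.20 FPKM in WT (SD, n = 3, limma adjusted p = 0.0267). In the opposite direction, C17H12.8 fell to 58.5 ± 10.1 FPKM in the mutant, against 107 ± 5.52 FPKM in WT, and clec-60 (ZK666.6) fell to 2.50 ± 0.478 FPKM, against 7.34 ± 1.45 FPKM in WT (SD, n = 3, limma adjusted p = 0.0137 and 0.0247). The gene K08D8.5 fell to 20.4 ± 1.53 FPKM in the mutant, against 27.97 ± 1.27 FPKM in WT (SD, n = 3, limma adjusted p = 0.0381). For sysm-1 (T24B8.5), a common reporter of PMK-1 activity, the level was 35.4, 15.7 and 20.95 FPKM in mutant replicates 1, 2 and 3, against 51.3, 24.3 and 32.4 FPKM in WT replicates 1, 2 and 3. The groups overlapped, and replicate 1 was the highest of its group on both sides. The log2 difference was -0.57 with a 95% interval of -1.46 to 0.31 (limma adjusted p = 0.407). With all libraries 6 of the 10 had an unadjusted p under 0.05, and 3917 of 17058 over all features tested. Over all features this number was not counted with a library left out. Without mutant replicate 1, mutant replicate 2 or WT replicate 2 0 of the 10 were called by limma, with 7, 6 and 6 at an unadjusted p under 0.05. The limma adjusted p were then 0.106, 0.110 and 0.0838 for irg-5 and 0.0528, 0.0557 and 0.0627 for C17H12.8. Those of clec-85 were 0.104, 0.0995 and 0.106, those of clec-60 0.0743, 0.0827 and 0.0972, and those of K08D8.5 0.106, 0.103 and 0.162. The calls of irg-5 and K08D8.5 were lost also without WT replicate 1 (0.0616 and 0.0598) or WT replicate 3 (0.0620 and 0.0986), that of K08D8.5 without mutant replicate 3 (0.0533) and that of clec-60 without WT replicate 3 (0.0620).

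The genes closest in pattern to each of the 4 that rose were found over 15224 coding genes, by the root mean square difference of log2(FPKM + 1), centred on each gene's mean, over the 6 libraries. For dcar-1 these were F13H10.6, hacl-1 and lat-2, at 0.0219, 0.0238 and 0.0248 (log2 units). For nipi-3 they were R03H10.7, F52B11.5 and C04F12.8, at 0.0215, 0.0318 and 0.0340. For tir-1 they were M163.1, F16B4.4 and the guanylyl cyclase gene gcy-15, at 0.0274, 0.0306 and 0.0330. For sta-2 they were F31F7.1, F14F9.3 and aman-3, at 0.0270, 0.0434 and 0.0443. None of these 12 is among the other genes named here. Likeness over 6 libraries includes the difference between the groups.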

How the data were processed

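Libraries of mid-L3 larval RNA came from an Illumina TruSeq kit, as the labels' protocols say. The authors deposited 1 table of FPKM values with a column per library, and the submitters' processing notes name Cuffdiff, Cufflinks 2.0.2 and TopHat2 2.0.7. Not given in the sources used here are the genome build, the annotation, the strand setting and any duplicate removal, so no coordinates are printed. Symbols came from WBcel235 tables, which held 44031 of the 45343 sequence names. All 6 columns matched a sample. Exons of other annotated genes cover at most 3.41% of the exon length of any of the 9 genes (sek-1).

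No count model was applied, since FPKM are no counts. Features with a mean of at least 1 FPKM were fitted as log2(FPKM + 1) with limma 3.58.1 in R 4.3.3 (group as the single term, trended prior variance), with Benjamini-Hochberg adjustment over 17058 features. The fit was tested on simulated data, where it made 105 calls, 3 of them false, against 1092 calls in the real data. It recovered 8% of 1.3-fold, 16% of 1.5-fold, 80% of 2-fold and 100% of 4-fold changes. Far fewer genes were changed there than were called in the real data, which makes the adjusted threshold stricter. The simulated noise depended on the level alone, so these shares need not hold for the real fit. A missing call alone therefore does not set aside a rise like those of the genes that rose. Among the uncalled genes of the route, the limma intervals of tpa-1 and snf-12 include the 1.20-fold rise of dcar-1. The intervals of nsy-1, sek-1 and pmk-1 end below it, at 1.00-fold, 1.03-fold and 1.10-fold. Folds on this scale slightly understate changes. Deviations of same-numbered samples had correlations of 0.133, -0.0352 and 0.0697 for numbers 1, 2 and 3, against -0.138 to 0.0565 for unlike numbers. Those of numbers 1 and 3 were thus the highest, and that of number 2 was not. The number was not used as a block in the reported fit, and a fit with the block is among the alternatives.

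The 9 genes and all lists were chosen with earlier results of these data known. Named were the 9 genes, called members of the other lists (the peptides as a group), all members of the epidermal partner and p38 lists, and the 3 closest patterns per called gene; pmk-1 paralogs, unc-54, yolk genes, kgb-1, sysm-1 and blmp-1 were added for context. Alternatives were other pseudocounts, filters, scalings, library weights, a replicate block, each library left out, both replicates 1 left out and, added after the data were seen, coding genes of at least 300 nt alone.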

Additional observations from a re-analysis of the deposited data

How the results depend on the processing

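In all 16 alternative settings each of the 9 genes kept the direction of its difference. Since the groups of each gene did not overlap, only median ratio scaling and quantile normalization could have changed a direction. The 4 calls were kept with pseudocounts of 0.1 and 0.5 FPKM, with no filter, with a minimum mean of 5 FPKM, with median ratio scaling, with quantile normalization and, in a setting chosen after the data were seen, among coding genes of at least 300 nt. With the replicate number as a block, dcar-1 was not called (limma adjusted p = 0.0664) and 3 of the 9 genes were, with 929 features in all. Among the 10 intestinal genes the block called irg-5 higher and C17H12.8 and sysm-1 lower, so that sysm-1 was gained and clec-85, clec-60 and K08D8.5 were lost, and tap-1 was lost in the list of JNK, ERK and TAK1 cascades. Library weights added tpa-1 and snf-12 (0.0187 and 0.0198), with 4117 features called in all. Without both replicates 1, 0 of the 9 genes were called by limma, with 298 features in all and 6 of the 9 at an unadjusted p under 0.05, and dcar-1, nipi-3, tir-1 and sta-2 had limma adjusted p of 0.171, 0.0923, 0.115 and 0.165 (cebp-1 0.0681). With 1 library left out, adjusted p ran from 0.0449 to 0.115 for dcar-1, 0.0204 to 0.105 for nipi-3, 0.0275 to 0.0723 for tir-1 and 0.0460 to 0.121 for sta-2, the number of the 9 genes called from 0 to 3 and that of features called from 369 to 1332. These settings have fewer samples, and the cause of single losses was not tested. In them the number at an unadjusted p under 0.05 was not counted over all features. Differences near 0 changed sign for rack-1 and skn-1 with library weights (adjusted p = 0.360 and 0.839), for egl-8 without both replicates 1 (0.953) and for sta-1 with quantile normalization (0.854). They also changed sign without some single libraries for rack-1, egl-8, dapk-1, sta-1, unc-43 and skn-1, with adjusted p over the left-out libraries of 0.684 to 0.967, 0.392 to 0.989, 0.462 to 0.999, 0.798 to 0.980, 0.243 to 0.993 and 0.597 to 0.896. Depth was estimated from value steps and not counted, and what it limits was not tested.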

Other observations

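Further genes were measured from the families of tpa-1 and snf-12. The 5 other protein kinase C and D genes were pkc-1, pkc-2, pkc-3, dkf-1 and dkf-2. Of these 0 were called by limma and 1 had an unadjusted p under 0.05 (over all features tested 3917 of 17058). That was pkc-2 (E01H11.1), at 50.3 ± 1.34 FPKM in the mutant and 58.2 ± 2.34 FPKM in WT (SD, n = 3, log2 difference -0.21, limma adjusted p = 0.0775), beside 0.25 for tpa-1. Of 11 other SLC6 transporter genes 7 reached the minimum mean of 1 FPKM, and 1 of these rose (3.34% of all features tested). The gene snf-3 (T13B5.1), a betaine transporter, was at 97.8, 100 and 92.9 FPKM in mutant replicates 1, 2 and 3, against 76.0, 69.7 and 67.5 FPKM in WT replicates 1, 2 and 3 (log2 difference 0.44, limma adjusted p = 0.0128). Its call was lost without mutant replicate 1 or 2 or WT replicate 2 (0.0599, 0.0570 and 0.0646). The median of the 7 was 0.13, beside 0.28 for snf-12.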
